A study of Mus musculus with 4 samples.

Results

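Fatty acyl reductases and the enzymes of ether lipid synthesis were described as a group of 5 genes, Far1, Far2, Gnpat, Agps and Pex7, in the mouse line Ba/F3. They were found as the probe sets to which the platform annotation gives exactly 1 symbol, that symbol being one of these names. Each of the 5 had 1 such probe set, so the group holds 5 of the 28815 probe sets and 5 of the 19935 genes compared. The members were selected on values of these same arrays, namely the very low value of Far2 in BCR-ABL cells relative to parental cells. Its pathway partners were added by function. Their differences are therefore a description and carry no p-value.

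Ba/F3 cells are haematopoietic precursors that depend on interleukin-3 (IL-3), and BCR-ABL is the kinase fusion of chronic myeloid leukaemia, which can replace that cytokine. RNA was read on 4 Affymetrix Gene 1.0 ST arrays. BCR-ABL cells with IL-3 gave 1 array. BCR-ABL cells without IL-3 gave 2 arrays, titled A and B. Parental cells with IL-3 gave 1 array. BCR-ABL came from a doxycycline-inducible construct, and all cells that carried it grew with doxycycline at 500 ng/ml. All cultures were in logarithmic phase, in RPMI with serum. The labels name no clone number, and they do not say whether the parental cells received doxycycline or whether A and B were separate cultures. The spread between A and B may therefore be technical.

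Ether lipids are phospholipids whose first chain is bound to glycerol by an ether bond, and plasmalogens are their most abundant form in mammals. Their synthesis starts inside the peroxisome, where GNPAT loads a fatty acid onto dihydroxyacetone phosphate and AGPS then swaps that acyl chain for a fatty alcohol. The alcohol comes from FAR1 or FAR2, paralogous enzymes of the peroxisomal membrane that reduce fatty acyl-CoA, and FAR1 is regarded as the main supplier and a point of feedback control. PEX7 is the import receptor that carries AGPS into the peroxisome. Fatty alcohols also serve for wax esters, the use for which FAR2 is best known in skin glands.

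The deposited numbers are log differences from the parental array, whose own value is 0 in every row. The base of the logarithm is not stated and was taken as 2, and every fold given here rests on that reading. A value of -1 thus means a signal 2-fold lower than the parental one. All values of BCR-ABL cells share the error of the lone parental array, and how bright any gene was in absolute terms was not analysed here. Over all genes the median value was 0.0085 with BCR-ABL and IL-3, 0.0044 on A and -0.077 on B. The SD over genes was 0.196 for the difference between A and B. For the array with IL-3 it was 0.152 against A and 0.222 against B. By this measure the array with IL-3 lay closer to A than B did. Precision is limited by how few arrays there are. In bulk RNA, fewer cells with a transcript and less transcript per cell cannot be told apart.

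The RefSeq promoters of the reductase paralogs are shown because their transcripts behaved so differently. Each window runs from 250 bases before the gene's start to 50 after it, on the plus strand of build GRCm38.p6. The Far2 window is chr6:148047166-148047465 and the Far1 window is chr7:113513584-113513883. Capitals mark matches on either strand to the motif GGGCGG, to the motif CCAAT and to the motif TATATA, and no marked matches overlap.
Far2: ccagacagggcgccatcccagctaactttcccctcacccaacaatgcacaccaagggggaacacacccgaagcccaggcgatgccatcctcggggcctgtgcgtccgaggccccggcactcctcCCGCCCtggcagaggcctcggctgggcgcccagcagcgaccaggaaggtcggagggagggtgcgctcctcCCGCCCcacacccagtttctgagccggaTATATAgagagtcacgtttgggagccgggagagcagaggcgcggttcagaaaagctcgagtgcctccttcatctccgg
Far1: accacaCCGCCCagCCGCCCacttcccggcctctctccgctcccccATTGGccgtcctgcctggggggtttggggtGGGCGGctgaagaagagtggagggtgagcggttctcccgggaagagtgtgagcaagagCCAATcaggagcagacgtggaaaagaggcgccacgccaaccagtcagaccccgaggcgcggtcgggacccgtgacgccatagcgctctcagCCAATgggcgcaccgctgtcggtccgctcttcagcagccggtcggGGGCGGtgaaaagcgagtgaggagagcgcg

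The Far2 window held 1 match to TATATA, whose first base lies at position -28 relative to the start. At any position, 5.67% of 32851 RefSeq promoter windows of this length held that motif, and the share at that place was not counted. The more usual form TATAAA had 0 matches in both windows and was present in 13.6% of all, and CACGTG had 0 in both and was present in 7.15%. The Far2 window held no CCAAT, whereas the Far1 window held 3, and 37.4% of all windows held at least 1. Among the members whose windows are not printed, Gnpat also held 0, Agps held 1 and Pex7 held 2. GGGCGG was present 2 times in the Far2 window and 4 times in the Far1 window, and 35.7% of all windows held at least 1. Gnpat held 1, Agps 2 and Pex7 1. The pair CG occurred 21 times in the Far2 window and 28 times in the Far1 window, against a median of 7. How many windows as rich in CG held GGGCGG was not counted. TTCNNNGAA, the letters of the STAT consensus, had 0 matches in both windows and was present in 8.3% of all. These matches are letters only and were not set against binding.

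Far2, one of the reductases, had the lowest value of all 19935 genes on A and on B. It stood at -2.83 in BCR-ABL cells with IL-3, at -3.71 on A and at -3.98 on B, against 0 on the parental array. All 3 BCR-ABL arrays lay far below the parental array, and the array with IL-3 lay above both A and B. BCR-ABL cells without IL-3 averaged -3.84 ± 0.18 (SD, n = 2), which was 14.4-fold lower than parental (SE 0.16 on the log2 scale, from the fit across all genes). In BCR-ABL cells with IL-3 the value was 7.09-fold below that of parental cells, the second lowest of all genes on that array, after Rhag. The A to B gap of Far2 was 0.26, and 15.7% of all genes had a gap at least as wide.

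Far1, the paralog that supplies most fatty alcohol for ether lipids, was slightly lower on every BCR-ABL array. It stood at -0.34 with IL-3, at -0.38 on A and at -0.32 on B, against 0 in parental cells. The 3 BCR-ABL arrays lay close together, with 0.06 between A and B, and none reached the parental value. The mean of A and B was -0.35 ± 0.04 (SD, n = 2), or 1.27-fold lower (SE 0.15). Of all genes, 5.25% lay at least this far below the parental array on both A and B. On the mean of A and B, Far1 lay 3.50 above Far2 in its log2 difference from parental cells.

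Gnpat, which encodes the acyltransferase of the first step, was the member that stood highest. Its value was 0.32 with IL-3, 0.65 on A and 0.68 on B, against 0 in parental cells. A and B differed by 0.03, and the array with IL-3 lay between them and the parental array. BCR-ABL cells without IL-3 were 1.58-fold higher than parental (mean 0.66 ± 0.02, SD, n = 2; SE 0.15), a height that 2.58% of all genes reached on both arrays.

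Agps, the synthase that makes the ether bond, stayed near the parental level. Its value was -0.06 with IL-3, 0.01 on A and 0.22 on B, against 0 in parental cells. The BCR-ABL arrays lay on either side of the parental array, and B alone set the mean of 0.12 ± 0.15 (SD, n = 2; SE 0.16). With A alone the difference was 0.01.

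Pex7, the receptor that imports AGPS, was lower on all BCR-ABL arrays but unevenly so. It stood at -0.68 with IL-3, at -0.54 on A and at -0.23 on B, against 0 in parental cells. The A to B gap of 0.31 was as wide in 10.2% of genes, and A stood closer to the array with IL-3 than to B. The mean of A and B was -0.39 ± 0.22 (SD, n = 2), or 1.31-fold lower (SE 0.17), and with A alone the drop was 1.46-fold against 1.18-fold with B alone. With IL-3 the value was 1.61-fold below the parental one, and 1.67% of all genes were that low on this array.

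**Figure D1:**
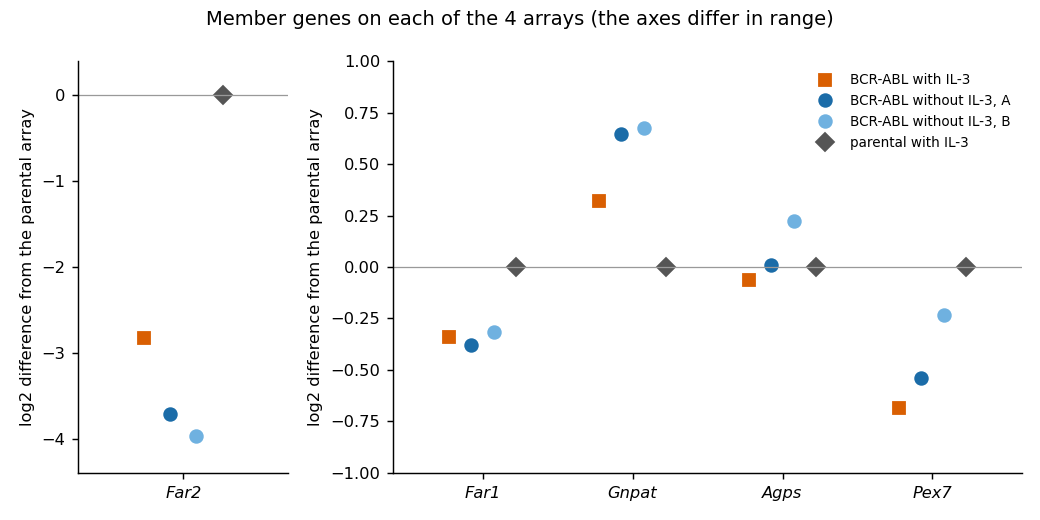
Log2 difference from the parental array (vertical axes, which differ in range) for Far2 on the left and the other 4 members on the right, 1 symbol per array. Far2 lies between -3.98 and -2.83 on the BCR-ABL arrays, while the other members lie between -0.68 and 0.68.

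The members were then counted against all genes. In BCR-ABL cells without IL-3, 3 of 5 members were below 0 on both arrays (42% of all genes were) and 2 were above 0 on both (27.9% of all genes), of which Agps was at 0.01 on A. A gap of at least 2-fold on both A and B was found for 1 member, Far2, where 0.406% of all genes were that much lower and 0.903% that much higher. In BCR-ABL cells with IL-3 the same single member was at least 2-fold from parental, where 0.517% of all genes were that much lower and 1.1% higher. Since Far2 was chosen for this value, nothing is read from these counts. In this comparison BCR-ABL, the derived line and, for A and B, the lack of IL-3 changed together and cannot be told apart, and doxycycline may have differed too.

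**Figure D2:**
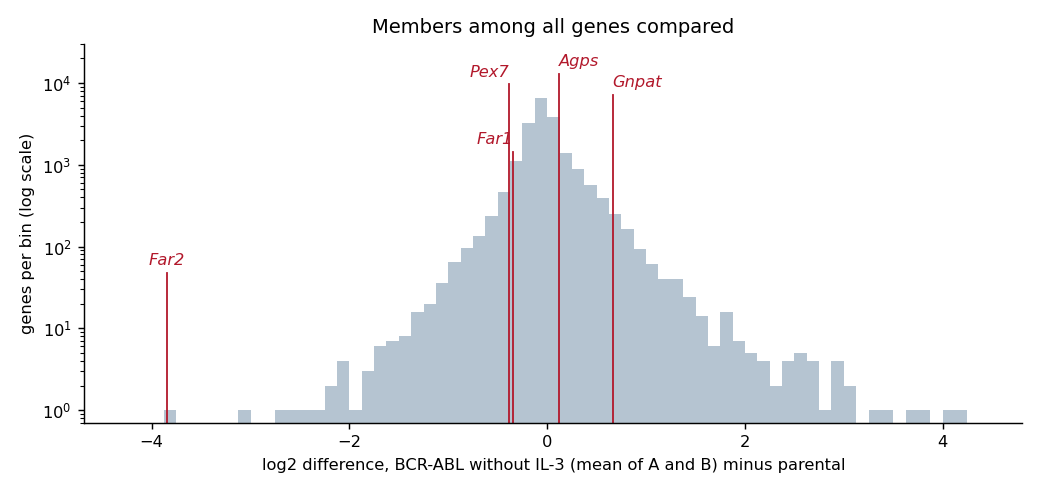
Number of genes (vertical axis, log scale) by log2 difference of BCR-ABL cells without IL-3, mean of A and B, from parental cells (horizontal axis, bins of equal width), with the 5 members marked by lines whose height has no meaning. Far2 at -3.84 stands alone at the low end, and the other members lie between -0.39 and 0.66.

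BCR-ABL cells with and without IL-3 were compared by the array with IL-3 against A and B. The group with IL-3 has 1 array, so its own spread is not known, and the differences are not shown to come from IL-3. Far2 was 2.03-fold higher with IL-3 (log2 1.02, SE 0.16), by 0.89 against A and 1.15 against B. Both gaps were wider than the A to B gap of 0.26. Gnpat went the other way, at -0.34 (SE 0.15) on the log2 scale, which was -0.33 against A and -0.36 against B. Its A to B gap was 0.03. The differences of Pex7 (-0.30, SE 0.17) and Agps (-0.18, SE 0.16) were smaller than their own A to B gaps of 0.31 and 0.22. Far1 differed by 0.01 (SE 0.15), and its array with IL-3 lay between A and B.

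None of the 5 members with IL-3 lay 2-fold or more from each of A and B, where 0.00502% of all genes were that much higher and 0% that much lower. Far2 ranked 3 of 19935 genes by the height of the IL-3 array over the mean of A and B. Only 2 genes, Far2 among them, lay at least 0.89 above both A and B. A and B enter this comparison and the one with parental cells, so a chance low on them would push Far2 down in the first and up in the second.

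Far2 was then set beside the other genes that were low in BCR-ABL cells. The 81 genes at least 2-fold lower than parental on both A and B included 49 (60.5%) whose value with IL-3 lay above both, as did 39.9% of all genes. Choosing genes for low values on A and B favours a higher value on the third array. With B alone 133 genes, and with A alone 112, were at least 2-fold lower than parental. Over the 81 the median difference between the IL-3 array and the mean of A and B was 0.13, and Far2 had the widest gap to the nearer of A and B (0.89). The next gene by that gap was H2-T24, a class I histocompatibility gene, at 0.66, and it was picked with its values in view. On the log2 scale, 73.5% of the Far2 difference from parental cells was still present with IL-3.

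The 5 genes whose values were most like those of Far2 were ranked by Euclidean distance over the 3 BCR-ABL arrays. Rhag, which encodes the Rh-associated glycoprotein of erythrocytes, was nearest at a distance of 1.14. It stood at -3.03 with IL-3, at -2.83 on A and at -3.28 on B, against 0 in parental cells, and its value with IL-3 lay between A and B. Klk1b22, a kallikrein, followed at 1.74, with -2.51 with IL-3, -2.61 on A and -2.67 on B. Hbb-y, an embryonic globin, was at a distance of 1.88 and stood at -2.39 with IL-3, -2.41 on A and -2.69 on B. The stored signal of Hbb-y was read as dim, meaning low on some array.

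Scin, which encodes the actin-severing protein scinderin, was at a distance of 2.44 and also had a higher value with IL-3. It stood at -1.56 with IL-3, against -2.04 on A and -2.74 on B. Gsta4, a glutathione transferase, was at 2.46, with -1.80 with IL-3 against -2.10 on A and -2.42 on B. With IL-3 minus without, Far2 differed by 1.02 on the log2 scale, Scin by 0.83, Gsta4 by 0.46, Hbb-y by 0.16, Klk1b22 by 0.13 and Rhag by 0.03. Rhag and Hbb-y also belong to the erythroid marker list, of which limma called 5 of 8 measured genes lower and 0 higher in BCR-ABL cells without IL-3 (adjusted p under 0.05; 2.87% of all genes were called lower and 5.19% higher). The 5 include Rhag and Hbb-y themselves, named above for their low values on these arrays, beside Klf1, Epor and Gfi1b. The median erythroid marker value was -0.71 with IL-3, -0.60 on A and -0.89 on B. The mean was -0.98 with IL-3, -0.94 on A and -1.24 on B, and without Rhag and Hbb-y it was -0.41, -0.38 and -0.65 on the same arrays. Whether these markers had a part in the Far2 value was not tested. Of 9 B lineage markers limma called 0 (1 at an unadjusted p under 0.05), and whether they were expressed at all was not analysed here. Of 10 mast cell and basophil markers 2 were called higher and 1 lower, and of 10 neutrophil and monocyte markers 0 were called higher and 1 lower. Cpa3, called higher, stood at 2.85 with IL-3, 2.84 on A and 3.24 on B. Hdc, also called higher, stood at 0.99, 0.93 and 0.54 on the same arrays. Cma1, called lower and read as dim, stood at -0.95, -0.74 and -1.06. The neutrophil and monocyte marker called lower was Cebpe, at -0.70, -0.61 and -0.91. Read as dim were 4 of the 9 B lineage markers and 2 of the 8 erythroid ones. So were 7 of the mast cell and basophil and 8 of the neutrophil and monocyte markers, against 7228 of all 19935 genes. Whether the markers of these other lists were expressed was not analysed either.

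**Figure D3:**
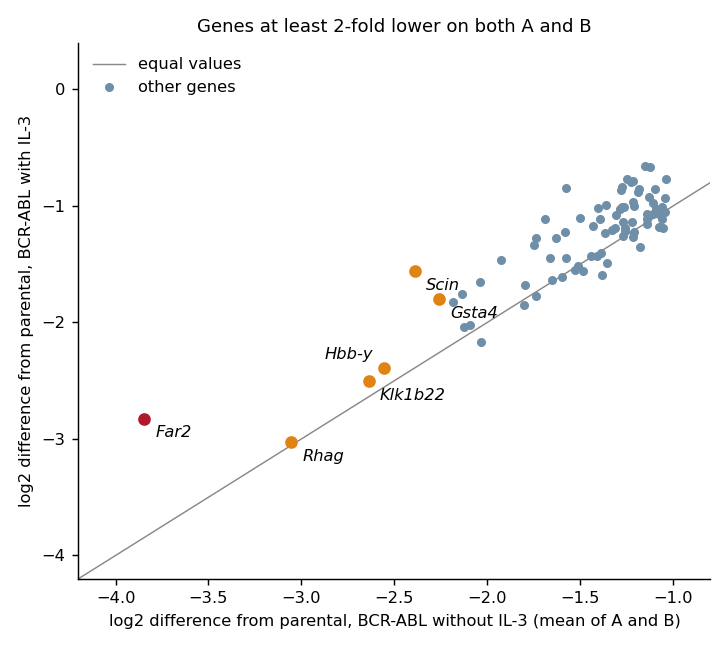
Values of the 81 genes at least 2-fold below parental on both A and B, with the log2 difference from parental of BCR-ABL cells without IL-3 (mean of A and B) on the horizontal axis and that of BCR-ABL cells with IL-3 on the vertical axis, and the line where both are equal. Far2, at -3.84 and -2.83, lies above that line, whereas Rhag, at -3.06 and -3.03, lies on it.

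The neighbours of Far2 on chromosome 6 did not share its low value. Over the 5 nearest measured protein-coding genes on each side, in the order of the RefSeq table, values on the 3 BCR-ABL arrays ran between -0.51 and 0.79. Ccdc91, next to Far2 on one side, stood at -0.37 with IL-3, -0.11 on A and -0.03 on B, against 0 in parental cells. Ergic2, next to it on the other side, stood at 0.21 with IL-3, 0.22 on A and 0.18 on B. The other members lie on other chromosomes, Far1 on 7, Gnpat on 8, Agps on 2 and Pex7 on 10.

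**Figure D4:**
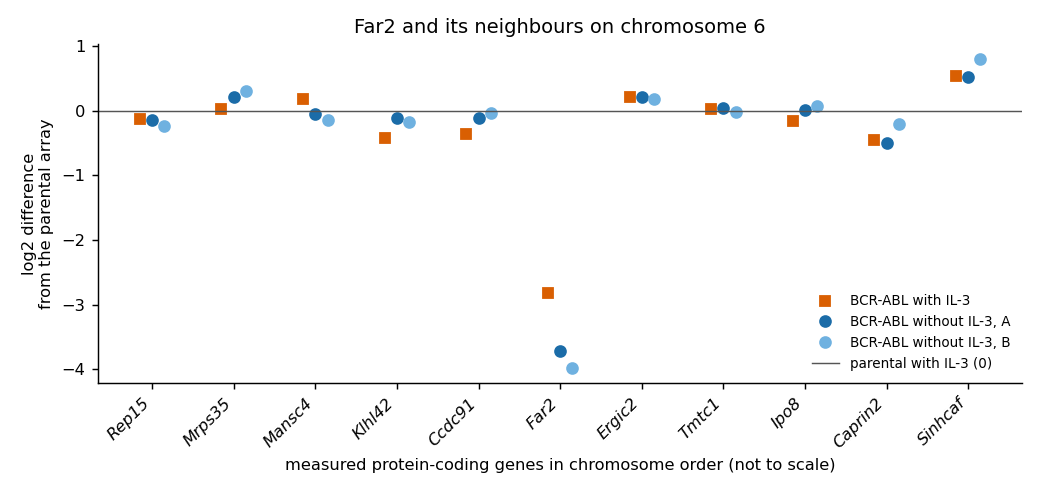
Log2 difference from the parental array (vertical axis) on the 3 BCR-ABL arrays for Far2 and the 5 nearest measured protein-coding genes on each side (horizontal axis, in chromosome order and not to scale). The neighbours lie between -0.51 and 0.79, and Far2 lies at -2.83 or below.

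Other genes of ether lipid synthesis and the peroxisome were taken from 4 lists that leave out the members. Of 57 genes listed, 48 were measured with a probe set of 1 symbol. Limma, fitted across all genes with Benjamini-Hochberg adjustment, called 1 of the 48 higher and 2 lower in BCR-ABL cells without IL-3 than in parental cells, against 5.19% and 2.87% of all genes. Their median log2 difference was -0.040, against -0.038 over all genes. Read as dim were 10 of the 48, against 7228 of all 19935 genes. These were 4 of 14 ether lipid enzymes, 3 of 9 genes of acyl-CoA supply and alcohol use and 3 of 13 peroxisomal enzymes and transporters. Of the 12 peroxins 0 were marked.

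Of 14 further ether lipid enzymes limma called 0 (1 at an unadjusted p under 0.05), and the median was -0.0085. Selenoi, the ethanolamine phosphotransferase of the later steps, had the widest difference. It stood at 0.39 with IL-3, 0.35 on A and 0.39 on B, against 0 in parental cells (adjusted p = 0.194 without IL-3 against parental). Tmem86b, which cleaves lysoplasmalogens, stood at -0.36 with IL-3, -0.30 on A and -0.31 on B. Dhrs7b, the reductase that acts after AGPS, stood at 0.02 with IL-3, 0.17 on A and 0.35 on B. Tmem86b and Dhrs7b also missed the threshold, with adjusted p = 0.348 and 0.496.

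Of 9 genes of fatty acyl-CoA supply and fatty alcohol use limma called 0 (0 at an unadjusted p under 0.05), with a median of -0.055. Aldh3a2, the dehydrogenase that oxidises the aldehydes of fatty alcohols, stood at 0.01 with IL-3, 0.30 on A and 0.23 on B. The acyl-CoA synthetases Acsl5 and Acsl6 averaged 0.16 and -0.15 over A and B, and Acsl6 was read as dim.

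Of 12 peroxins, the proteins that build peroxisomes and fill them, limma called 1 higher and 0 lower, with a median of -0.058. The called gene was Pex11a, which promotes peroxisome division. It stood at 0.73 with IL-3, 0.63 on A and 0.87 on B, against 0 in parental cells (log2 0.75, SE 0.16, adjusted p = 0.00564). Higher values on all 3 BCR-ABL arrays were also seen for Pex10 and Pex14, at 0.35 and 0.34 over A and B, and lower ones for Pex6, at -0.30, and none of these passed. Pex5, which carries most matrix enzymes and works with PEX7 in mammals, stood at -0.10 over A and B. The naming rule does not cover it, and its value was known when it was picked.

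Of 13 peroxisomal enzymes and transporters limma called 2 lower and 0 higher, with a median of -0.050. Acox3, an oxidase of branched fatty acids, stood at -0.51 with IL-3, -0.45 on A and -0.68 on B, against 0 in parental cells (log2 -0.57, SE 0.16, adjusted p = 0.0342). Hacl1, a lyase of branched and hydroxylated acyl chains, stood at -0.68 with IL-3, -0.49 on A and -0.53 on B (log2 -0.51, SE 0.15, adjusted p = 0.0471). Scp2, catalase (Cat) and Mvk averaged -0.40, -0.37 and 0.26 over A and B and did not pass. With arrays centred on their own medians the log2 differences were of similar size, at 0.78 for Pex11a, -0.53 for Acox3 and -0.48 for Hacl1. Limma's adjusted p was then 0.0572, 0.0859 and 0.0928 in that order, which ended all 3 calls. Hacl1 also lost its call when dim probe sets were left out (limma adjusted p = 0.0524). It was not itself read as dim and its log2 difference stayed at -0.51, so only the set of genes in the fit had changed.

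In BCR-ABL cells with IL-3 against those without, limma called 0 of the 48 genes (3 at an unadjusted p under 0.05), where 0.00502% of all genes were called higher and 0% lower. The median log2 difference was -0.026, against 0.034 over all genes. Tmem189, the gene of the plasmalogen-forming desaturase, now named Peds1, had the widest difference of the 48, for which it was picked. It stood at 0.64 with IL-3, against 0.33 on A and 0.13 on B (log2 0.41, SE 0.16, adjusted p = 0.91).

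**Figure D5:**
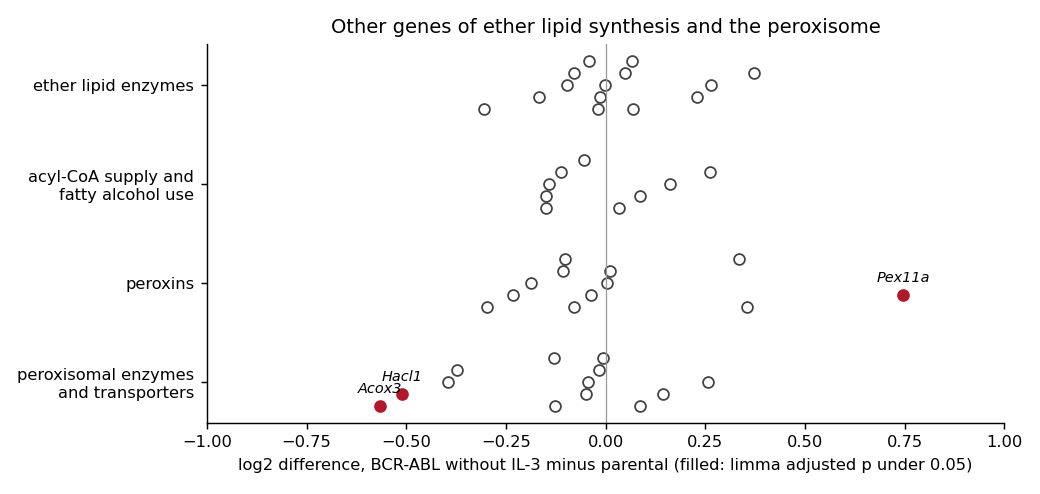
Log2 difference of BCR-ABL cells without IL-3 from parental cells (horizontal axis) for the 48 measured genes of the 4 lists (rows), with filled points where limma's adjusted p was under 0.05 and vertical offsets only to separate points. Values run from -0.57 to 0.75, and Pex11a, Acox3 and Hacl1 are filled.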

How the data were processed

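The deposited table gives log2 differences from the parental array for 28815 probe sets. That they are differences was read from the parental column, which is 0 throughout. Base 2 is an assumption: 99.2% of the nonzero numbers are whole multiples of 2 to the power -21, the single-precision step of stored numbers from 4 upwards. That range is usual for log2 array signals, but binary storage gives such steps with any base. The authors' background correction, normalization and probe summary are not stated in the sources used here, and signal over background was not analysed. An odd multiple marks a probe set with a stored signal below 8 on some array, called dim, and none of the 5 members was marked so. A signal below 8 can also give only even multiples. The lack of the mark therefore does not show that a member, Far2 included, lay above 8 on every array.

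The platform annotation gave 1 symbol to 21780 probe sets, several to 1605, and did not list 5430. Probe sets of a gene were averaged. Limma (version 3.58.1, R 4.3.3) fitted all 4 arrays with 3 group means, two-sided, with Benjamini-Hochberg adjustment over 19935 genes and a threshold of 0.05. The 1 residual degree of freedom comes from A and B (prior 16.38 degrees of freedom, prior SD 0.128). The groups of 1 array are taken to share that spread, so p-values may be too small. The script was tested on simulated data.

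Members and lists were chosen with earlier results of these data known. Named were the members, called list genes, up to 3 uncalled genes of each list with the widest difference from parental, and the 5 genes nearest to Far2, without small RNAs, olfactory receptors and predicted genes. List symbols were matched through RefSeq gene identifiers. Promoters are from RefSeq (GRCm38.p6), and all 5 members matched.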

Additional observations from a re-analysis of the deposited data

How the results depend on the processing

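The difference of Far2 from parental cells was -3.81 with each array centred on its median, -3.71 with A alone and -3.98 with B alone. Each member has 1 probe set, not read as dim, so the choice of probe set and the filter on dim ones could not change its value. Centring moved Gnpat to 0.70 against parental cells and to -0.39 for IL-3 against no IL-3, and Far1 to -0.037 for IL-3 against no IL-3. The mean of erythroid markers without Rhag and Hbb-y was added after seeing the data, and calls of cell type markers with centring are not given. With centring limma called 0 of 12 peroxins, 0 of 13 peroxisomal enzymes and 936 of all genes (637 higher and 299 lower, against 1607 as given), and without dim probe sets 1 peroxisomal enzyme. For IL-3 against no IL-3, where 1 gene was called, the count was 0 with centring, 8 with the widest probe set and 2 at an adjusted p under 0.1. With A or B left out no residual degree of freedom remains, so only genes at least 2-fold apart were counted: 332 to 429 against parental cells, and 11 to 38 for IL-3 against no IL-3. With both A and B required, these counts were 261 against parental cells and 1 for IL-3 against no IL-3. A fit of only the 2 groups compared has the same residual degree of freedom and could not change a call. No paired analysis was possible because only 1 group has more than 1 array.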
